A study of Mus musculus with 2 samples.

Results

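H3K27me3 peaks at internal promoters are the replicated peaks on chromosomes 1 to 19 that touched the 1 kb on either side of an internal start and stayed clear of the 1 kb on either side of every outermost start. An internal start is the first base of an annotated protein-coding transcript that begins inside its gene. An outermost start is the most upstream annotated end of a protein-coding gene. Of 37152 replicated peaks on these chromosomes, 499 met the rule, or 1.34%, against 919 that touched an outermost start. They lay at 436 internal starts of 295 genes, and no peak was shared by starts of different genes. The rule used position alone, so the members were not chosen by how strong they were. It does not keep a gene out because of a second peak: 98 of the 295 genes also had a replicated peak at their own outermost start.

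The peaks come from chromatin immunoprecipitation and sequencing with an antibody to H3K27me3 in MEL, an immortalised mouse leukaemia line that the labels call an analogue of the human line K562. There is 1 group of 2 replicates, with no treatment and no second genotype or condition. The labels number the replicates as biological ones but give both the same biosample, so their spread may be technical. Age and sex of the donor mouse are not known from the labels. Besides the list of each replicate there is a pooled list, called on both replicates together, and the replicated list, a subset of it. Read depth is unknown, since the lists hold no read counts. Positions are on mm10.

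H3K27me3 is written by Polycomb repressive complex 2 and is best known over silent genes that steer development. Many mammalian genes have more than a single promoter, and an internal promoter can give a shorter protein or the same protein in another tissue. Polycomb marks at an internal promoter and at the outermost promoter of the same gene can therefore differ. In mammals the mark is typical of CpG-rich promoters that are silent, though it can also spread over large stretches of CpG-poor sequence.

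Sequences at the strongest peaks show how different these places were in CpG content. The 3 stretches below are the middle 300 bases of the peak with the highest −log10 q at each gene, for the 3 genes that ranked first, read on the strand of the gene and with every CpG in capitals. They hold no annotated UTR. These stretches are not the sequence at the internal start itself. The centre of the peak lay 657 bp downstream of the start at Usp44, 884 bp upstream at Smarcd3 and 1047 bp downstream at Rarg. Usp44 lies at chr10:93834326-93834625 on the plus strand, Smarcd3 at chr5:24602747-24603046 on the minus strand and Rarg at chr15:102245304-102245603 on the minus strand.
Usp44: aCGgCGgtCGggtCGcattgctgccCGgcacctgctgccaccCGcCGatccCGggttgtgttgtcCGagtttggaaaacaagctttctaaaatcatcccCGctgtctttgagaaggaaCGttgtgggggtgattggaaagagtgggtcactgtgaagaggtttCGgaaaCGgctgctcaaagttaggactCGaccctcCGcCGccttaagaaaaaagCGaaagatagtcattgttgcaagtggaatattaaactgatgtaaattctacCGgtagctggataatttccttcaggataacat
Smarcd3: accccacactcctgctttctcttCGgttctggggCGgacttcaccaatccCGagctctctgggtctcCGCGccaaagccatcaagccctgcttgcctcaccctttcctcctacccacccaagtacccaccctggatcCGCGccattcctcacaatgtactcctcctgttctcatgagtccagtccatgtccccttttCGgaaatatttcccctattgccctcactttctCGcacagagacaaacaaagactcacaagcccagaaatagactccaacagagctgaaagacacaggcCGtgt
Rarg: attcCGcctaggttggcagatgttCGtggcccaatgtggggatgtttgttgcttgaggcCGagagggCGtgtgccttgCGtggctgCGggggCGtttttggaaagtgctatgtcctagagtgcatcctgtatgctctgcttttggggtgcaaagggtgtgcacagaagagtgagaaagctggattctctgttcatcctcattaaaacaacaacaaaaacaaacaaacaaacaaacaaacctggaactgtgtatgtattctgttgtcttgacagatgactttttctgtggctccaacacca
The stretch at Usp44 holds 18 CpGs, that at Smarcd3 10 and that at Rarg 7. The internal start of Usp44 is that of its outermost protein-coding transcript, and the gene is annotated to begin farther upstream. Usp44 encodes a deubiquitinase, Smarcd3 a subunit of the SWI/SNF remodelling complex and Rarg a retinoic acid receptor. The authors' −log10 q of the strongest peaks was 6.59 at Usp44, 5.28 at Smarcd3, 4.62 at Rarg, 3.89 at Tmem56 and 3.83 at Lrrc36, against a median of 0.98 over the 499 peaks. Zfhx3 tied with Lrrc36, and below them in that order came peaks at Efna1, Tdrkh and Tanc2.

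A further 3 pairs of sequences come from genes with a marked CpG-poor internal start and a CpG-rich outermost start without a peak within 1 kb in any of the 4 lists. This held in 57 of the 250 genes with a mark at an internal start clear of every outermost window. A start was called CpG-rich where, in the 501 bp centred on it, the ratio of observed to expected CpG was at least 0.6 and GC at least 50%, and CpG-poor otherwise. The contrast in CpG content is not particular to marked starts: an internal start was CpG-poor and the outermost start of its gene CpG-rich for 113 of the 355 marked starts of this kind, or 31.8%, against 42.5% of all 12732 such starts. Each pair gives the 150 bases before the internal start and then the 150 bases before the outermost start of the same gene, again with CpGs in capitals. The genes are those with the most covered bases among genes of this kind with a complete annotated 5′ end and no annotated UTR in either stretch, a condition that left out Zfyve9 and Tnfrsf9. For Smpd3, a neutral sphingomyelinase, they lie on the minus strand at chr8:106280979-106281128 and chr8:106337989-106338138. For Yes1, a kinase of the Src family, they lie on the plus strand at chr5:32639381-32639530 and chr5:32611021-32611170. For Gjc1, a connexin of gap junctions, they lie on the minus strand at chr11:102804902-102805051 and chr11:102819701-102819850.
Smpd3 internal: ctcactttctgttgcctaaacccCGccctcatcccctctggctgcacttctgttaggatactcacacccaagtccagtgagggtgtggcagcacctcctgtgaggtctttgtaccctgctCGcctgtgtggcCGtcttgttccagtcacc
Smpd3 outermost: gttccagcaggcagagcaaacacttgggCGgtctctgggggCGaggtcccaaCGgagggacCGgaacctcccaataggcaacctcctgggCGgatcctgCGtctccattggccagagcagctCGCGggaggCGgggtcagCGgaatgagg
Yes1 internal: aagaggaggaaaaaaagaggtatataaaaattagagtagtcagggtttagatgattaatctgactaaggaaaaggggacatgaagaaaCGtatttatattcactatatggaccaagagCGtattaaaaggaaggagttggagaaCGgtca
Yes1 outermost: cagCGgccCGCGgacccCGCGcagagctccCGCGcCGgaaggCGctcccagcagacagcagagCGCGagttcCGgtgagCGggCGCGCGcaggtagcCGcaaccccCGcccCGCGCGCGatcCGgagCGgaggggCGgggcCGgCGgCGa
Gjc1 internal: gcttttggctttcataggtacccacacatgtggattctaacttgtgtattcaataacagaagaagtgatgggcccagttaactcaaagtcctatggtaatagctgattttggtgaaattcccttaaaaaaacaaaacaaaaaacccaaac
Gjc1 outermost: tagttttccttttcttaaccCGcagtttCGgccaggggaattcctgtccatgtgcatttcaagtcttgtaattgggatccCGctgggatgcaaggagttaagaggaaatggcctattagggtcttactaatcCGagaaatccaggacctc
Farther out, replicated peaks covered 3323 bases within 5 kb of the outermost start of Yes1, 2838 at Gjc1 and 0 at Smpd3. Smpd3 has 3 CpGs before the internal start and 10 before the outermost start, Yes1 has 3 and 28, and Gjc1 has 0 and 4. The CpG class was taken from 501 bp, and the 150 bases printed before the outermost start of Gjc1 would not by themselves count as CpG-rich.

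The most covered internal start was that of Tdrd1, which encodes a tudor protein of the germline piRNA pathway. Replicated peaks covered 1945 of the 2001 bases of its window, with 1779 bases in replicate 1 and 1730 in replicate 2. Its outermost start, 4.5 kb upstream, had 210 bases in that list, 535 in replicate 1 and 318 in replicate 2. Smpd3 came next, with 1861 replicated bases at its internal start (1413 in replicate 1 and 1345 in replicate 2) and 0 bases at its outermost start, 57010 bp away, in all 4 lists. Tmem56 had 1849 bases at its internal start (1485 and 1104 in replicates 1 and 2) and 0 at its outermost start, 19.8 kb away. In both of these genes the internal start is that of the transcript which APPRIS, an annotation of main protein isoforms, ranks as principal.

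Signalling and transcription genes were among the 20 genes with the most covered bases. Smarcd3 had 1571 bases at its internal start (1500 and 1205 in replicates 1 and 2) and 340 at its outermost start (568 and 418). Zfyve9, an anchor for Smad proteins, had 1324 bases at the internal start (1192 and 851) and 0 at the outermost start. Tnfrsf9, a costimulatory receptor of T cells, had 1302 bases (796 and 1225), against 0 in all 4 lists within 5 kb of its outermost start. All these internal starts were covered in both replicates, while the outermost starts of Zfyve9 and Tnfrsf9 were covered in neither. Yes1 had 1280 bases (955 and 1493) at an internal start 28.4 kb from the outermost. Zfhx3, a homeodomain transcription factor just below these 20, had 1188 bases (794 and 847) at a start 772.0 kb from the outermost one, the greatest such distance. Its window of 5 kb around the outermost start held 0 bases in both replicates. The bromodomain gene Baz2b had 1305 bases (1183 and 436) at the start of its outermost protein-coding transcript.

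Genes of differentiated tissues were found there too. Cyp1a1, an enzyme of xenobiotic metabolism induced through the aryl hydrocarbon receptor, had 1327 bases at its internal start (1105 and 1489) and 0 at the outermost start 9.7 kb upstream. Slc12a3, the sodium chloride cotransporter of the kidney, had 1289 (1373 and 571), at the start of a transcript whose 5′ end is annotated as incomplete. Lpo, lactoperoxidase, had 1269 bases (1557 and 1325). Of these 3 genes only Lpo had replicated bases at the outermost start, 354 of them. Lrrc36, with 1592 bases (1578 and 871), and Efcab3, with 1230 (801 and 995), were also among the 20, as were Dock3, Tanc2, Jaml and the olfactory receptor gene Olfr63.

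The remaining 3 of the 20 had an internal start so near the outermost one that the windows overlapped, and a base in the overlap counts for both. Ikzf4, a lymphoid transcription factor, had 1694 bases (1732 and 1414 in replicates 1 and 2) at an internal start 1343 bp from the outermost, which had 899 (942 and 882). Efna1, an ephrin ligand, had 1629 (1386 and 1409) and 1743 (1260 and 1611). Hes1, a Notch target, had 1261 (1090 and 910) at a principal start 956 bp away and 446 (443 and 182) at the outermost start, and that principal start is also the outermost protein-coding one. Peaks of the rule gave 1174 of the internal bases at Ikzf4, 1154 at Efna1 and 815 at Hes1, and the others came from peaks that touched an outermost window. Windows overlapped in this way in 47 of the 295 genes. All 20 genes had bases at the internal start in both replicates. Of the 20, 12 had no replicated peak at the outermost start, and 9 had none there in any of the 4 lists.

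**Figure D1:**
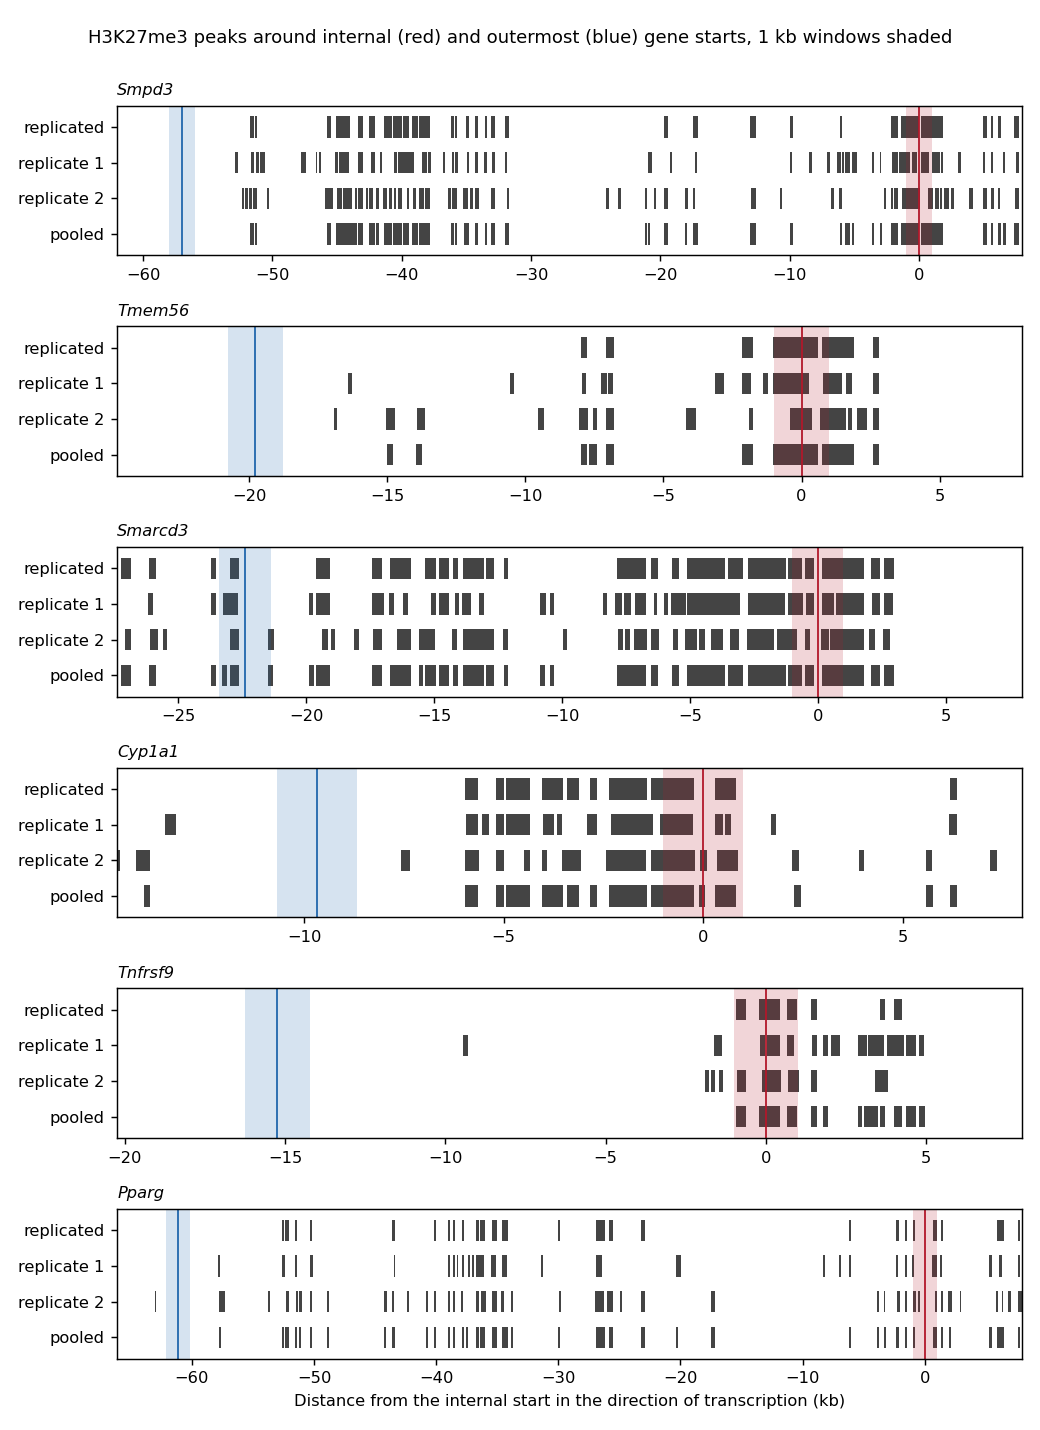
Peaks of the 4 lists (rows, dark blocks) around 6 genes, with distance from the internal start in kb along the direction of transcription; red and blue lines mark the internal and the outermost start and shading their 1 kb windows. Peaks fill much of the red window in each row for Smpd3, Tmem56, Smarcd3, Cyp1a1 and Tnfrsf9, while Smarcd3 is the gene of the 6 with peaks in the blue window.

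Some marked starts lay far from the outermost start, and the examples here were picked for distance or peak number. Tanc2, a scaffold of synapses, had the most peaks of the rule in a single gene, 9, spread over 4 internal starts. Its start 306.5 kb from the outermost had 1367 bases (961 and 1096 in replicates 1 and 2). The transcript that begins there has an incomplete 5′ end. Dock3, an activator of Rac in neurons, had 1463 bases (943 and 1221) at a start 264.7 kb away, also with an incomplete end. Zbtb20, a repressor of the BTB family, had 643 (626 and 542) at a principal start 634.4 kb away. Oxr1, a gene of protection against oxidation, had 445 (156 and 337) at 263.1 kb. Within 5 kb of the outermost starts of Zbtb20 and Oxr1 there was no replicated base.

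Of 13768 autosomal genes with an internal start, 6538 had 1 or more whose window met no outermost window, here called separable starts. There were 12732 separable starts. A replicated peak lay at 355 of them, in 250 genes, so the share was 2.79% (exact Clopper-Pearson 95% interval 2.51% to 3.09%). At the outermost starts of the same 6538 genes the share was 3.49% (228 genes, interval 3.06% to 3.96%), and over all 20807 autosomal genes it was 3.08%. In replicate 1 the shares were 4.35% at separable internal starts, 5.14% at the outermost starts of the same genes and 4.56% over all genes. Replicate 2 gave 6.38%, 7.16% and 6.41%, and the pooled list 4.31%, 5.09% and 4.6%. By gene, 3.82% of the 6538 had a marked separable start, with 5.95% in replicate 1, 8.46% in replicate 2 and 5.77% in the pooled list. Neighbouring starts share peaks, so these intervals are too narrow, and no test was made. Counted within genes, 178 had a replicated peak at a separable internal start only, 156 at the outermost start only and 72 at both. Replicate 1 gave 271, 218 and 118 genes, and replicate 2 gave 350, 265 and 203. By gene the internal count was thus the higher one, while by start the internal share was the lower one, and a gene can have several internal starts but has a single outermost start. The other 45 genes had a peak only at an internal start close to an outermost window.

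Coverage gave the same order. Replicated peaks covered 0.624% of the bases within 1 kb of separable internal starts and 0.855% of those within 1 kb of the outermost starts. Replicate 1 had 0.743% at internal and 0.957% at outermost starts, and replicate 2 had 1.05% and 1.32%. The difference, internal minus outermost, was -0.23 percentage points over replicated peaks, -0.21 for replicate 1 and -0.26 for replicate 2, with an SD of 0.036 between the replicates (n = 2). Chromosome 11, which carries 16.4% of the replicated peaks, had much of this difference: without it the value was -0.15. Counting each gene once gave -0.13. In flanks between 4 and 5 kb from the starts, coverage was 0.736% around internal and 1.13% around outermost starts. Replicate 1 had 0.894% and 1.31% there, and replicate 2 had 1.21% and 1.81%. The surroundings thus differed in the same direction as the starts, and by more.

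**Figure D2:**
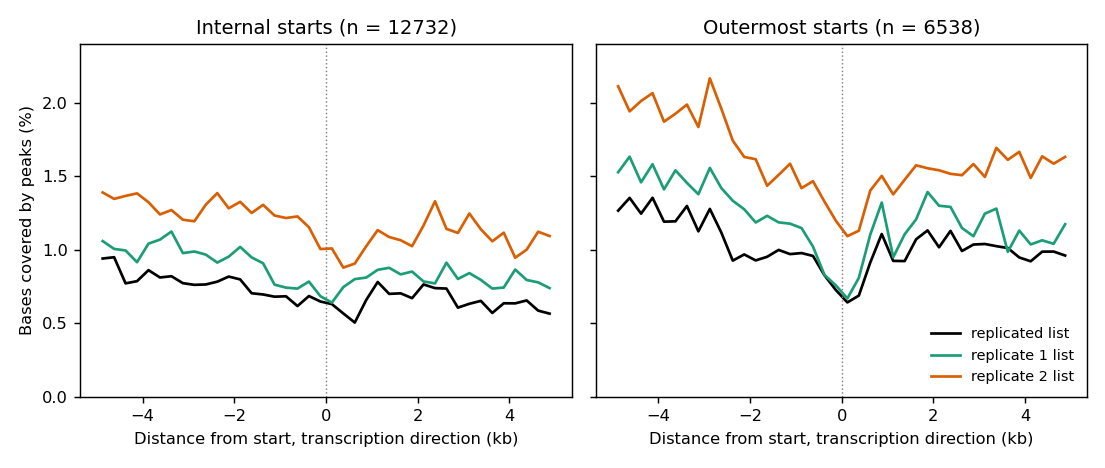
Percentage of bases covered by peaks in 250 bp bins against distance in kb from 12732 separable internal starts (left) and the 6538 outermost starts of the same genes (right), with a line for the replicated list and for each replicate. Both profiles are lowest close to the start, and the dip is deeper around outermost starts. Around internal starts the replicated list is nearly as low at the downstream end.

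Along the gene, coverage was lowest just after the start. The lowest bin around internal starts held 0.505% for replicated peaks, 0.641% for replicate 1 and 0.879% for replicate 2, and each of these bins began 0 to 500 bp after the start. Around outermost starts the lowest bin was the first after the start in each list, with 0.642%, 0.669% and 1.09%. In the bin that begins 5 kb upstream, coverage was 0.941% for internal and 1.27% for outermost starts in the replicated list. In the bin that begins 4750 bp downstream it was 0.566% and 0.961%. Around internal starts replicated coverage was thus nearly as low at the downstream end as in the lowest bin. The replicates had 0.739% and 1.09% in that downstream bin of internal starts. A peak of the rule covered the start base itself at 85 of 436 starts. Such peaks covered a median of 297 of the 2001 bases of a window, so most bases of a window lay outside them. The strongest peak was centred downstream of the start at 241 starts and upstream at 195.

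The 355 marked separable starts were more often those of main, fully annotated transcripts. APPRIS principal transcripts began at 136 of them, or 38.3%, against 29.0% of all separable starts. At 62 of them, or 17.5%, every transcript had an incomplete 5′ end, against 3435 of all 12732 separable starts, and such places are not shown to be promoters. Read the other way, a replicated peak lay at 3.69% of starts with a principal transcript and at 2.42% of the others. In replicate 1 these shares were 5.59% and 3.85%, and in replicate 2 they were 8.14% and 5.66%. The annotated coding start was that of the outermost protein-coding transcript at 175 marked starts, or 49.3%, against 40.2% of all separable starts. At 11 marked starts, or 3.10%, the start was that of the outermost protein-coding transcript, against 2.47% of all separable starts. These shares come from starts that share genes and peaks, and the difference was not tested.

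Distance to the outermost start was shorter for marked starts, the median being 10859 bp, while all separable starts had 16168 bp. The share with a replicated peak was 3.49% at 2 to 5 kb, 3.10% at 5 to 20 kb, 2.27% at 20 to 100 kb and 2.15% beyond 100 kb. In replicate 1 it was 4.98%, 4.77%, 3.86% and 3.50% over the same classes. In replicate 2 it was 6.72%, 7.03%, 6.13% and 4.86%, so there the nearest class was not the highest.

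CpG content around marked internal starts was lower than around all separable internal starts. A start counted as marked with a peak anywhere within 1 kb, so the sequence measured need not lie under the peak. In the 501 bp centred on the 355 marked starts the median ratio of observed to expected CpG was 0.242, against 0.289 over all separable internal starts and 0.446 at the outermost starts of the same 250 genes. By the rule given above 22 marked starts were CpG-rich, or 6.20%, against 16.2% of all separable internal starts. GC content was alike, with medians of 50.1% and 50.3%. With the most covered start of each gene, 86 of the 250 genes had a CpG-poor internal and a CpG-rich outermost start. In 149 genes both were CpG-poor, in 10 the internal start alone was CpG-rich, and in 5 both were.

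A replicated peak lay at 1.07% of the 2063 CpG-rich internal starts and at 1.99% of the 3117 CpG-rich outermost starts. Among CpG-poor starts the shares were 3.12% of 10669 internal and 4.85% of 3421 outermost starts. In replicate 1 CpG-rich starts had 2.18% (internal) and 2.82% (outermost), and CpG-poor starts 4.77% (internal) and 7.25% (outermost). In replicate 2 CpG-rich starts had 2.76% (internal) and 3.37% (outermost), and CpG-poor starts 7.08% (internal) and 10.6% (outermost). Internal starts had the lower share within both classes in these 3 lists, though no test was made. A few marked internal starts were CpG-rich all the same, such as Smarcd3, with a ratio of 0.913, Usp44, with 0.818, and Tmem56, with 0.705. Tmem56 is 1 of the 10 genes with a CpG-rich internal and a CpG-poor outermost start, and its outermost start has a ratio of 0.191.

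**Figure D3:**
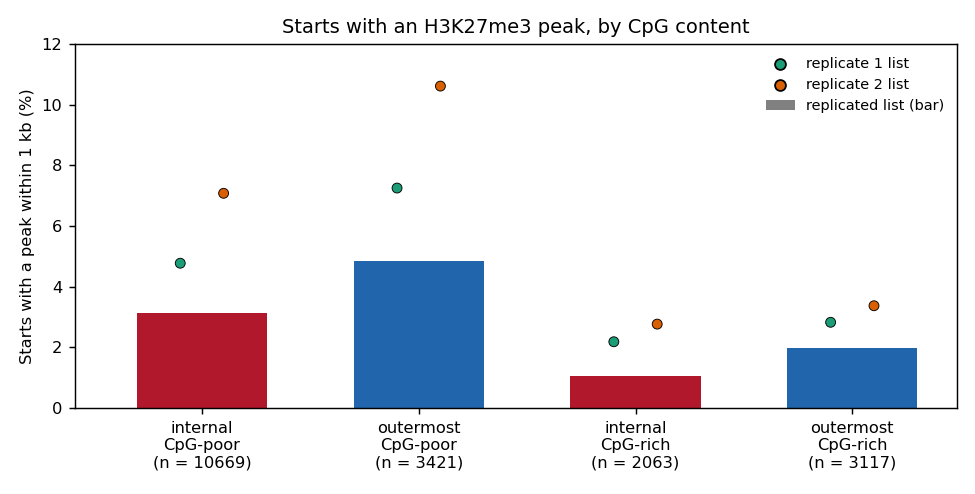
Percentage of starts with a peak within 1 kb for CpG-poor and CpG-rich starts, internal in red and outermost in blue; bars show the replicated list and points the lists of replicates 1 and 2. Each internal value lies below the outermost value of the same class and list, and CpG-poor starts lie above CpG-rich ones.

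A mark at the outermost start was more frequent in genes with an internal mark than in genes without, though most genes with an internal mark had none there. Of the 250 genes with a replicated peak at a separable internal start, 72 also had a peak at the outermost start, or 28.8%. Of the 6288 genes without an internal peak, 156 had one there, or 2.48%. Without chromosome 11 the shares were 26.3% and 2.21%. In replicate 1 they were 30.3% and 3.55%, and in replicate 2 they were 36.7% and 4.43%. The replicates differed in these shares by less than the 2 kinds of gene did, and no test was made.

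This sharing was most frequent where the starts lay close together. Among genes with a marked internal start 2 to 5 kb from the outermost, 29 of 65 had a peak at both, or 44.6%, against 2.24% of genes with an unmarked internal start in that class. At 5 to 20 kb the shares were 29.0% and 2.94%, and at 20 to 100 kb they were 25.4% and 2.92%. Beyond 100 kb, 2 of 25 genes had a peak at both, or 8.0%, against 1.45%. A gene with separable starts in more than 1 distance class counts in each, and can be marked in one and unmarked in another. Both replicates showed the same order over distance. Examples with both starts covered are Rarg, with 881 bases at an internal start (974 and 361 in replicates 1 and 2) and 1589 at the outermost start (1503 and 1611), and Jaml, with 1311 (1002 and 1349) and 1794 (1207 and 1431). Jaml encodes an adhesion molecule of leukocytes. Replicated peaks covered 57.4% of the sequence between the 2 starts in Rarg, and a median of 7.33% over all marked separable starts.

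**Figure D4:**
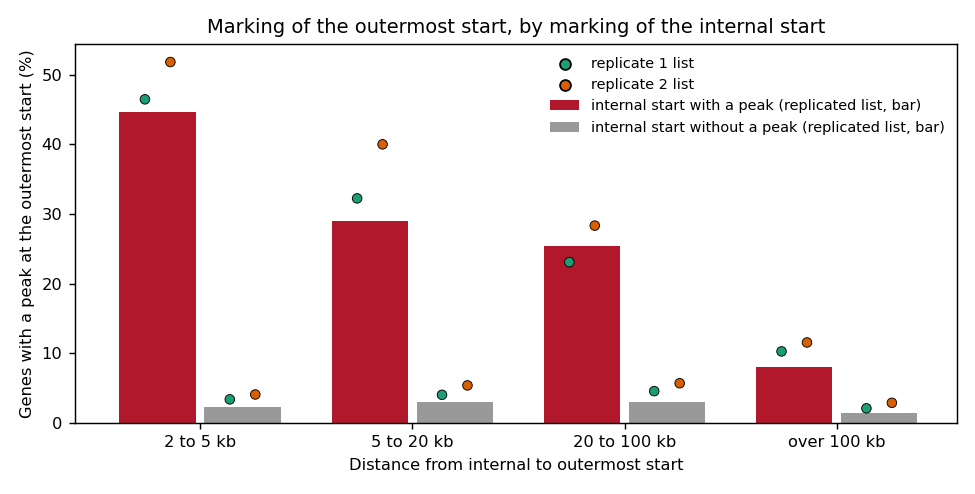
Percentage of genes with a peak at the outermost start, by distance class of the separable internal start, for genes with (red) and without (grey) a peak at that internal start; bars show the replicated list and points each replicate. The red bars go down from 44.6% at 2 to 5 kb to 8.0% beyond 100 kb, and the grey ones stay under 3%.

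The remaining 178 genes had an internal mark without a replicated peak at the outermost start. In 123 of them neither replicate had a peak there in its own list. Replicate 1 alone had a peak there in 9 genes and replicate 2 alone in 37, and both had one in 9. At the internal start 145 of the 178 had peaks in both replicates. The 178 were picked by the replicated list, which derives from both replicates, so these counts are partly set by that choice. The median number of bases covered at their internal starts was 360.5 over replicated peaks, 333.5 for replicate 1 and 402.0 for replicate 2. Within 5 kb of the outermost start 78 of the 178 had no replicated base. In the others the bases there can be those of the internal peak itself, where the 2 starts lie close. At Tnnt2, with starts 4345 bp apart, the same 211 replicated bases were counted in both windows. In 34 genes none of the 4 lists had a base within 5 kb of the outermost start.

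Replicates marked most internal starts alike. At the most covered internal start of each of the 295 genes, both replicates had a peak in 246 genes, replicate 1 alone in 18, replicate 2 alone in 28 and neither in 3. The replicated list was made in part from the lists of both, so this is not separate support. Bases covered ranged from 0 to 1779 in replicate 1, with a median of 332, and from 0 to 1730 in replicate 2, with a median of 425. Some starts differed widely. Pstpip2, an adaptor of myeloid cells, had 815 bases in replicate 1 and 0 in replicate 2, and Lonrf2 had 631 and 0. Dnah2, a dynein of cilia, had 939 bases in replicate 2 and 0 in replicate 1, and Trim38 had 658 and 0. At outermost starts of the 295 genes both replicates had a peak in 96, replicate 1 alone in 19, replicate 2 alone in 49 and neither in 131. With 5 kb on either side, 217 of the 295 outermost starts had a replicated peak, against 98 with 1 kb. The wider window takes in the internal peak itself where the 2 starts lie close, so part of that rise was set by the rule. Over all marked internal starts the first quartile of the distance to the outermost start was 2720 bp.

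**Figure D5:**
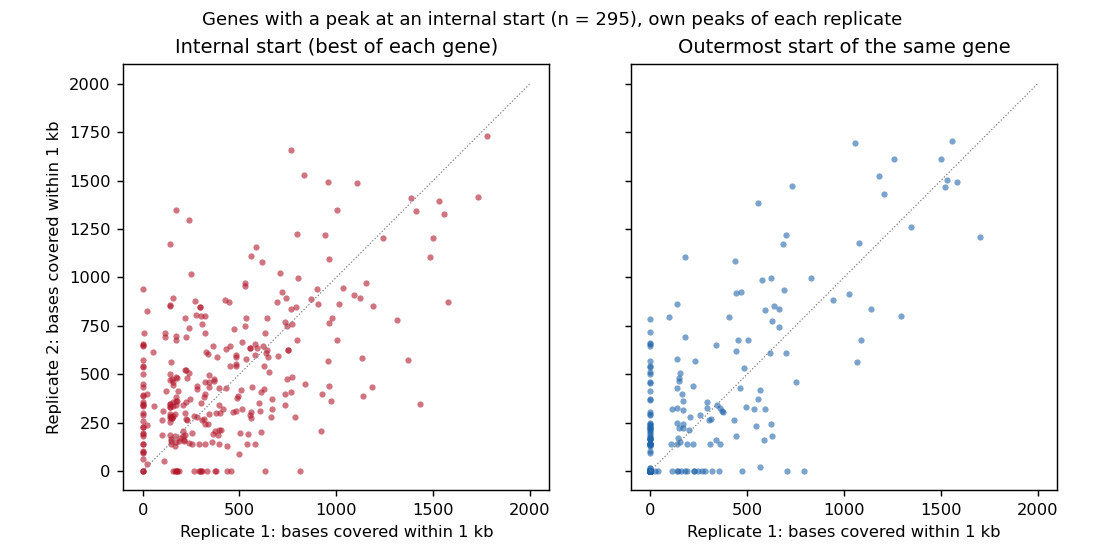
Bases covered within 1 kb of the most covered internal start (left, red) and of the outermost start (right, blue) of the 295 genes, in replicate 1 (horizontal) and replicate 2 (vertical); each point is a gene and the dotted line marks equal values. Points along the axes are starts covered in 1 replicate only, 18 and 28 genes at internal starts.

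The peaks of the rule resembled other peaks in strength and size. Their median width was 307 bp, against 298 bp for peaks at outermost starts and 278 bp for all autosomal replicated peaks. The median signal value, a score of the authors, was 3.54, against 3.67 and 3.54. A −log10 q of 2 or more was reached by 66 of them, or 13.2%, against 16.3% and 10.9%. Most lay in groups: 84.2% had another replicated peak within 3 kb, against 82.9% of peaks at outermost starts and 80.4% of all. Exons of protein-coding transcripts held 14.3% of their bases, against 6.23% for replicated peaks inside gene bodies. A first exon begins at every start the rule uses, so that share was partly set by the rule. The start of a long non-coding RNA gene lay within 1 kb of 17 of them, or 3.41%, against 6.09% of peaks at outermost starts and 1.38% of all. At the edge of the rule, 7 of the 499 had under 10 bp in an internal window, the smallest 3 bp, and 362 peaks were kept out because they touched both kinds of window, the smallest overlap with an outermost window being 12 bp.

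Chromosome 11 held 79 of the 499 peaks, or 15.8%, close to its 16.4% of all replicated peaks. It has 6.48% of the separable starts. A replicated peak lay at 6.30% of its separable starts, with 8.61% in replicate 1 and 12.7% in replicate 2, the highest share of all autosomes in each list. Chromosome 18 was next in the replicated list with 3.97%, and chromosome 8 was lowest with 1.26%.

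For the gene lists and families, a share of 3.82% over all genes with a separable start is the value to read counts against. In the lists of replicates 1 and 2 that value is 5.95% and 8.46%. Nuclear receptors, transcription factors switched by hormones and lipids, had 4 of 33 genes with a marked separable start, or 12.1%. The count was also 4 in each replicate, where the share over all genes was higher. The 4 genes were Rarg, Pparg, Nr2e1 and Esr2. Pparg, the master factor of fat cells, had 539 bases (536 and 579 in replicates 1 and 2) at a principal start 61.1 kb from the outermost and 504 at another, with 0 at the outermost start in all 4 lists. Nr2e1, a factor of neural stem cells, had 297 (556 and 288), and the oestrogen receptor gene Esr2 had 136 (339 and 244). Such counts are small, and replicated bases ran from 136 to 881 among the 4. The highest −log10 q of a peak at the most covered start was 4.62 at Rarg, 1.49 at Esr2, 0.54 at Pparg and 0.53 at Nr2e1.

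Solute carriers had 9 of 107 genes marked, or 8.41%, with 13.1% in replicate 1 and 17.8% in replicate 2, against 5.95% and 8.46% of all genes. Besides Slc12a3, named above, they include Slc26a9, an anion transporter, with 623 bases (430 and 631 in replicates 1 and 2), and Slc7a15, with 442 (377 and 0). Of 52 potassium, calcium and sodium channel genes 4 were marked at a separable start, or 7.69%. Kcnj12, an inward rectifier, had 527 bases (278 and 807), the calcium channel gene Cacna1c 313 (324 and 800) and Kcne2 302 (1433 and 347). Cacnb3 had 154 (140 and 296) at a start close to its outermost window and 35 at a separable one.

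The lists of blood and signalling genes were small. The Ets factors Erg, with 232 bases (361 and 193), and Ets1, with 275 (229 and 265), made 2 of 28 blood lineage transcription factors, or 7.14%. Erg had no peak within 1 kb of its outermost start, while Ets1 had 182 replicated bases there and its marked start is that of the outermost protein-coding transcript. Of 16 leukocyte surface and signalling genes 2 were marked, or 12.5%, Jaml and the macrophage growth factor receptor gene Csf1r, with 332 bases (176 and 481). Of 26 genes of the Wnt, Notch, Hedgehog, BMP and FGF pathways 1 was marked at a separable start, or 3.85%. This was Tcf7l2, a transcription factor of Wnt signalling, with 822 bases (692 and 874) at a start 152.7 kb from an outermost start that had none. Hes1 was marked only at a start that is not separable. Of 41 synapse and axon guidance genes 2 were marked, or 4.88%, with 7.32% in replicate 1 and 4.88% in replicate 2. They were Tanc2 and Neo1, a netrin receptor, with 636 bases (295 and 846). Among homeobox, T-box, Sox, Fox and Pax genes 1 of 32 was marked, or 3.125%, with 6.25% in replicate 1 and 12.5% in replicate 2. It was the T-box gene Tbx4, with 519 bases (453 and 540), and Lhx2 had 384 (369 and 473) at a start close to its outermost window.

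Of 17 erythroid genes with a separable start, the line's own lineage, 0 were marked by replicated peaks or by peaks of replicate 1, and 2 by peaks of replicate 2. Slc4a1, the anion exchanger of red cells, had a start 923 bp from its outermost one with 761 bases (746 and 474), of which peaks of the rule gave 351. That start belongs to its outermost protein-coding and principal transcript. No Polycomb or DNA methylation gene of 21 was marked in the replicated list, with 2 in replicate 1 and 3 in replicate 2. Tyrosine phosphatases, of 19 genes, had 0 in all 3 lists, and myosins and tropomyosins had 0 of 22 in the replicated list and 1 in each replicate. These lists are small, so a count of 0 there is not read as absence. Of the 47 genes with textbook alternative promoters and a separable start, 3 were marked, or 6.38%: Rarg, Tcf7l2 and Pparg. Collagens and matrix metallopeptidases had 1 of 38, or 2.63%. Their shares were 10.5% in replicate 1 and 15.8% in replicate 2, above the 5.95% and 8.46% of all genes. Zfp genes had 3 of 147, or 2.04%, with 3.40% in each replicate. Cadherins and protocadherins had 1 of 14, or 7.14%, which was Pcdh1, with 62 bases (0 and 62 in replicates 1 and 2).

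Olfactory receptor genes, of which each sensory neuron expresses a single one, made up 30 of the 295 genes, with 16 of them on chromosome 11. Of 734 with a separable start 26 were marked, or 3.54%, close to the 3.82% of all genes. On chromosome 11 it was 13 of 60, or 21.7%, against 7.61% of all its genes with a separable start. On the other autosomes it was 13 of 674, or 1.93%, against 3.52% of all genes there. The most covered were Olfr63, with 1235 bases (832 and 1531), Olfr223, with 1181 (1530 and 1392), and Olfr1366, with 1119 (1312 and 780). Their internal starts belong to principal transcripts. At their outermost starts Olfr63 had 1511 replicated bases, Olfr223 1567 and Olfr1366 0. Receptor genes lie in clusters, so they are not independent of each other.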

How the data were processed

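H3K27me3 peaks of MEL cells, 2 replicates of 1 group, were read from 4 mm10 lists. Per the deposited text descriptions, the authors called peaks on the alignments of each replicate and of both together against 1 shared control, and derived the replicated list from those. The caller, the aligner and the rule for the replicated list were not named in the sources used. The deposited signal value is a score of unstated definition, and the authors' −log10 q was used as given. An mm9 list was not used here. Depth is unknown.

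Gene and transcript starts were taken from GENCODE mouse release 21 (GRCm38, the build of mm10), and sequence, credited to RefSeq, from GRCm38.p6. All 277208 autosomal peaks lay within its chromosome lengths. A gene start is the end of the annotated gene, non-coding transcripts included. Unique start positions were used. A peak met a window with 1 bp. Coverage is the union of peaks over windows of 2001 bases, and the bases printed for a gene are those under all peaks of a list at the internal start that peaks of the rule covered most. CpG content was taken from 501 bp around the start.

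No test was made: 1 group allows none between conditions, and starts are not replicates. Spread is that of the 2 replicates' own lists. Intervals cover counting error only. Genes named are the 20 with most bases under replicated peaks at an internal start, the 10 with the highest −log10 q (Olfr330 tied with the last of them), up to 4 per list, up to 5 per replicate with no base in the other, and the 5 greatest distances. Some items that the rules select are not reported here. Others named were chosen after their values were seen, as was Gjc1. The genes, lists and families were chosen with earlier results of these data known. The design had assumed that the rule leaves no peak at a gene's own outermost start, which was not so. The code was tested on simulated peaks. Python 3.11.15, pandas 2.3.3, numpy 2.4.6, scipy 1.17.1 and pyfaidx 0.9.0.4 were used. Alternatives were other lists, thresholds, overlaps, windows, start definitions and transcript sets.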

Additional observations from a re-analysis of the deposited data

How the results depend on the processing

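The order of internal and outermost starts held in every setting tried for coverage, while the size of each value and the number of peaks depended on the list and the threshold. The count of peaks, 499, was 849 in the pooled list, 66 with −log10 q of at least 2, 238 in the upper 50% by signal value, 304 with 500 bp on either side, 1001 with 2.5 kb and 332 with basic transcripts. The count of genes, 295, was 451 in the pooled list, 52 with −log10 q of at least 2, 158 in the upper 50% by signal value, 451 with 2.5 kb and 192 with starts at least 5 kb away. With a single replicate's list the peaks numbered 858 to 1233 and the genes 465 to 659.

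The share of separable internal starts with a peak was 4.31% in the pooled list, 0.408% with −log10 q of at least 2, 4.92% with 2.5 kb, and 4.35% to 6.38% with a single replicate's list. It was 1.44% in the upper 50% by signal value and 1.76% with 500 bp. That of outermost starts was 5.09%, 0.765%, 6.81% and 5.14% to 7.16% for the first 4 of these settings, 2.17% in the upper 50% by signal value and 2.00% with 500 bp. The coverage difference, -0.23 percentage points, was -0.14 with −log10 q of at least 2, -0.090 with 500 bp, -0.30 with 2.5 kb and -0.34 with basic transcripts. In settings added after the data were seen it was -0.13 with each gene counted once, -0.31 with complete 5′ ends and -0.15 without chromosome 11. It was -0.26 to -0.21 with a single replicate's list. The cause of these shifts was not tested. The overlap rule does not enter coverage and gave no value there. No paired analysis was possible because there is 1 group, so replicate numbers pair no samples across groups. Depth is unknown, so bases without a peak cannot be read as free of H3K27me3.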
